A study of Mus musculus with 6 samples.

Results

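Of the 74686 regions in the deposited ATAC-seq count table, 3481 had no RefSeq protein-coding gene within 100 kb of either end, and these gene desert regions are described here. They were chosen by position alone: 46922 of the other regions lay inside a protein-coding gene and 24283 lay outside one but within 100 kb. OT1 CD8 T cells, whose transgenic receptor sees a peptide of ovalbumin, had been purified by their CD8 and CD45.1 staining out of B16-OVA-GP61 tumors, mouse melanomas with ovalbumin and the GP61 epitope as antigens. In 3 libraries the OT1 cells came from tumors of mice with SMARTA cells, CD4 T cells with a transgenic receptor specific for GP61, and in 3 libraries from tumors without them. Both groups share the tumor line, the OT1 receptor and the sort, and the labels give no time point, age or host strain, and do not say whether the replicates came from separate animals, so the p-values reflect only how far these libraries vary. Libraries are numbered within each group by the replicate number of their titles.

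Most gene-distal open chromatin in T cells consists of enhancers, short stretches of DNA where transcription factors bind and which can act on promoters far away through folding of the chromosome. ATAC-seq reads such sites out because its transposase cuts DNA that is not packed in nucleosomes. Genes for developmental regulators and transcription factors often sit beside long gene-poor stretches that hold many of their enhancers, but position alone does not show which gene an element acts on.

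The name gene desert holds only in part. Antigen receptor segments are not listed as protein-coding genes in the RefSeq table, so 269 members lay in or within 100 kb of the segments of an antigen receptor locus, and 943 members lay inside a non-coding gene. With all RefSeq genes as boundaries, 267 members had no gene of any kind within 100 kb. The nearest protein-coding gene was a median of 179 kb away (quartiles 131 and 283 kb), and 1411.63 kb away at the most. At the limit itself, the closest member lay 100.013 kb from a gene and the first region left out lay at 99.99 kb. In all, 3421 of the 3481 members had an end minus start of 400 bases.

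Sequence could be shown for the few members that touch an annotated transcript start. Of the 3481 members, 71 overlapped the RefSeq promoter windows of 71 genes (GRCm38.p6, 300 bases from 250 before to 50 after a gene's start), 84 windows in all, none of a protein-coding gene. A region is called closed or opened where its log2 fold, with SMARTA cells over without, is negative or positive with an edgeR quasi-likelihood adjusted p under 0.05 over all 74686 regions. Among these 71 members 2 were closed and 7 opened, where 10.4% and 4.68% of all regions were. The 5 windows printed here, chosen after their values were seen, belong to 2 opened, 2 closed and 1 uncalled member. Capitals mark exact matches, on either strand, to motif letters of ETS (CCGGAAG), RUNX (TGTGGTT), AP-1 (TGANTCA), TCF/LEF (CTTTGAA) or NFAT (TGGAAA) factors, and no match overlapped another in these windows.
Gm14010 chr2:128422517-128422816 (+ strand): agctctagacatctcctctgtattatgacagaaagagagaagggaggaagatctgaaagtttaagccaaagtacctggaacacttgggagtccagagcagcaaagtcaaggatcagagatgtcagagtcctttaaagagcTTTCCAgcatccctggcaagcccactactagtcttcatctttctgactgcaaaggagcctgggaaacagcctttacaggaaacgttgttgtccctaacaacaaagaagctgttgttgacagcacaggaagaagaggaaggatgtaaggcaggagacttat
Gm46116 chr9:61056683-61056982 (+ strand): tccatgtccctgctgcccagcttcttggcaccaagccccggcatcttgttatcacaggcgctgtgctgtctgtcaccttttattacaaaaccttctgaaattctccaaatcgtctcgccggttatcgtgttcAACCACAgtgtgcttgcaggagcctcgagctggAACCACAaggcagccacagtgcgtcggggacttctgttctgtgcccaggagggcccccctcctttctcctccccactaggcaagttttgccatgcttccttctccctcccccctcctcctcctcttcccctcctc
Gm40948 chr13:52083558-52083857 (- strand): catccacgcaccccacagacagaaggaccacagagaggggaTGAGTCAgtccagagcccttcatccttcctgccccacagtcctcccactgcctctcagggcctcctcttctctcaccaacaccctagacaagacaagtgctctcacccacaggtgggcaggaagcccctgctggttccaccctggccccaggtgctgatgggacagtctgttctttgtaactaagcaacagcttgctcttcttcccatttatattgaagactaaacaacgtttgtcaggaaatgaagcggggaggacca
Gm30214 chr14:53039417-53039716 (- strand): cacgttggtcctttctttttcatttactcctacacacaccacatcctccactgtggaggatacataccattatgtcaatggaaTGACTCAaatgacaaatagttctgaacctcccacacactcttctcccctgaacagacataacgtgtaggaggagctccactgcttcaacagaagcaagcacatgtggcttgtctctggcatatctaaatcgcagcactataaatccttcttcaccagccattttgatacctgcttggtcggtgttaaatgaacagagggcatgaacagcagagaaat
Morrbid chr2:128429302-128429601 (- strand): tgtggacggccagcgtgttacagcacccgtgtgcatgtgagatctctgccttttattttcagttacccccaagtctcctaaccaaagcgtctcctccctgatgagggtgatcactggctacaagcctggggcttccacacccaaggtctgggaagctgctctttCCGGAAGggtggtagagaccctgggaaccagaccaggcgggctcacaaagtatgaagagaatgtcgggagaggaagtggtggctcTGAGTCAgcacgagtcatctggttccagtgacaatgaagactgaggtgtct

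Gm14010 and Morrbid are overlapping non-coding genes between Bcl2l11 and Spdye4c. The region at the Gm14010 start opened, with a log2 fold of 1.38 ± 0.21 (SE) and an edgeR adjusted p of 0.00204, whereas the region over the Morrbid start had a log2 fold of 0.21 ± 0.18 and an edgeR adjusted p of 0.477. The Gm46116 region, between Uaca and Tle3, opened with a log2 fold of 0.90 ± 0.16 (edgeR adjusted p 0.00546), and its window holds 2 RUNX matches. The Gm40948 and Gm30214 regions closed, with log2 folds of -1.41 ± 0.23 and -2.39 ± 0.24 (edgeR adjusted p 0.00302 and 0.000333), and each window holds 1 AP-1 match. RUNX letters stood in 17.9% of the 84 windows and in 5.27% of all 32851 RefSeq promoter windows. For AP-1 the shares were 22.6% and 7.81%, for TCF/LEF 15.5% and 5.14%, for NFAT 29.8% and 21.4%, and for ETS 4.76% and 8.86%. The CTCF core letters CCCTC, in 71.4% and 66.0%, were too common to mark. The 84 windows were picked for overlap with an open region in these T cells. The 32851 include them and were taken whether open or not. The 2 sets differ in gene type too, as none of the 84 is of a protein-coding gene. The shares are a description with no test.

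Read totals over the 74686 regions were 20175065, 16595779 and 27182809 in the libraries with SMARTA cells, against 19149455, 26218921 and 24129749 without. Members had a median of 55, 41 and 71 counts with SMARTA cells, against 66, 79 and 77 without. The defining T cell markers were covered (all 6 had regions), with summed values of 726 to 802 CPM with SMARTA cells and 787 to 843 without. Regions at CD8 genes summed to 197 to 211 CPM with SMARTA cells and 201 to 209 without, and regions at Cd4 to 28.0 to 47.5 CPM with SMARTA cells and 41.5 to 46.6 without. No region was tested at Ms4a1, Lyz2, Adgre1, Tyr, Dct, Sox10, Ncr1 or Col1a2, markers of B cells, myeloid cells, melanocytes, NK cells and fibroblasts. Summed values with SMARTA cells and without were 97.7 to 116 and 104 to 107 CPM for the myeloid list, 261 to 299 and 249 to 267 for the melanocyte list (regions at 3 of 6 genes), 10.97 to 17.9 and 16.1 to 24.3 for the NK list, and 43.2 to 47.8 and 48.6 to 56.6 for fibroblast and endothelial genes. The part of any other cell type in the results was not tested.

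Gene desert regions as a set took a smaller share of the reads with SMARTA cells. They held 2.34%, 2.05% and 2.20% of the counts in the libraries with SMARTA cells, against 2.50%, 2.45% and 2.46% without. Every library with SMARTA cells lay below every library without, and the same held when the antigen receptor members were left out, at 2.20%, 1.91% and 2.07% with SMARTA cells against 2.37%, 2.34% and 2.34% without. Each library is bulk, so fewer cells with a site open and a site less open in each cell cannot be told apart.

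Region by region, closing outnumbered opening. Of the 3481 members, 601 (17.3%) were closed, where 10.4% of all regions were, and 192 (5.52%) were opened, where 4.68% of all regions were. In 913 members (26.2%) all 3 libraries with SMARTA cells lay below all 3 without, against a background of 18.5%, and in 485 (13.9%) they lay above, against 15.7%. The median log2 fold of the members was -0.09, beside 0.01 over all regions, and under loess scaling it was 0.0012, beside 0.02 over all regions, with 551 members closed and 265 opened. Inside protein-coding genes 9.19% of regions were closed and 4.97% opened, and outside but within 100 kb 11.7% were closed and 4.02% opened.

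Closed members moved farther than opened ones. Among the closed members 516 of 601 changed 2-fold or more, which is 14.8% of all members, where 8.29% of all regions closed by that much, and the median log2 fold of the closed members was -1.48 (-1.36 over all closed regions). Among the opened members 81 of 192 changed 2-fold or more, which is 2.33% of all members, where 1.17% of all regions did, and their median log2 fold was 0.91 (0.77 over all opened regions). The counts moved with single libraries, and so did those of all regions. Without with-SMARTA library 3, 348 members were closed, where 5.90% of all regions were. Opened members numbered 102 without with-SMARTA library 3 (2.39% of all regions were opened), and 123, 66 and 74 without no-SMARTA library 1, 2 or 3 (2.42%, 1.70% and 1.64% of all regions).

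**Figure D1:**
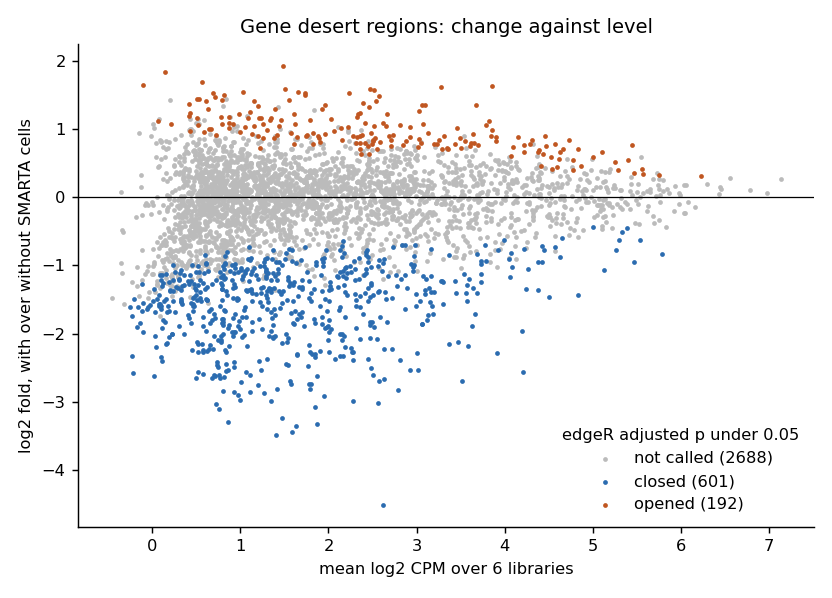
Each point is 1 of the 3481 gene desert regions, with its mean log2 CPM over the 6 libraries on the x axis and its log2 fold, with SMARTA cells over without, on the y axis; colours give the 601 closed, 192 opened and 2688 uncalled members. Closed members reach a log2 fold of -4.51, and no opened member exceeds 1.92.

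Under the TMM scaling of the plot of change against level, closed members were spread over low and middle levels and opened ones reached into the high levels, a pattern that changed under loess scaling, which removes shifts between libraries that follow level. Since members were less accessible than regions in general (median log2 CPM 1.51, against 2.06 for all regions), they were read against regions of like level, in 5 equal classes of all regions. In the lowest class 1059 members held 195 closed (18.4%, against 14.0% of all regions there) and 28 opened (2.64%, against 1.22%), but under loess scaling 121 closed (11.4%, against 9.20%) and 81 opened (7.65%, against 5.12%). In the middle class 698 members held 144 closed (20.6%, against 12.9%) and 49 opened (7.02%, against 4.16%). In the highest class 284 members held 24 closed (8.45%, against 2.77%) and 33 opened (11.6%, against 9.77%), an order that turned under loess scaling to 37 closed (13.0%, against 5.32%) and 26 opened (9.15%, against 4.54%). The closed share was thus lower in the highest class than in the lowest under TMM and higher under loess scaling, and the opened share was higher in the highest class by far less under loess scaling. Members exceeded all regions of their class in both directions in each of the 5 classes, under both scalings.

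**Figure D2:**
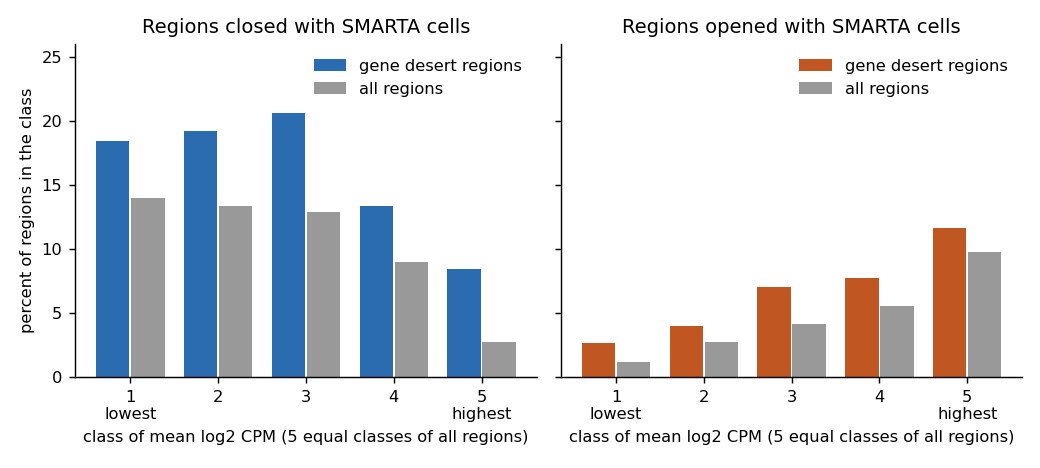
Bars give the percent of regions closed (left) and opened (right) with SMARTA cells in 5 equal classes of mean log2 CPM, for gene desert regions and for all regions. The closed share of members is 18.4% in the lowest class and 8.45% in the highest, and the opened share is 2.64% in the lowest and 11.6% in the highest, under TMM scaling; under loess scaling the closed shares were 11.4% and 13.0% and the opened shares 7.65% and 9.15%.

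Calls were found at every distance from the nearest gene. At 100 to 200 kb 355 of 2021 members were closed (17.6%, against 10.4% of all regions) and 105 opened (5.20%, against 4.68%), and at 200 to 500 kb 213 of 1149 were closed (18.5%) and 66 opened (5.74%). Beyond 500 kb 33 of 311 were closed (10.6%, near the share of all regions) and 21 opened (6.75%), with a median log2 fold of 0.08, and under loess scaling the order turned to 25 closed and 31 opened. Antigen receptor members, 2.60% closed with a median log2 fold of 0.22, were not taken out of the distance classes. Distance and kind of locus therefore cannot be told apart here. Without with-SMARTA library 3, closed members numbered 212, 122 and 14 in the 3 classes. Opened ones beyond 500 kb numbered 2 without no-SMARTA library 2, 5 without no-SMARTA library 3 and 10 without with-SMARTA library 1. The closed ones there numbered 21 without no-SMARTA library 3. In the nearer 2 classes the opened counts without no-SMARTA library 1, 2 or 3 were 64, 44 and 46, and 41, 20 and 23. Without with-SMARTA library 3 they were 53 and 34, and without with-SMARTA library 1 the 200 to 500 kb class held 40.

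The deposited peak lists gave a second readout. A peak overlapped the region in all 6 lists for 1657 members (47.6%), against 59.5% of all regions. For 206 members (5.92%, against 3.59% of all regions) a peak stood in all 3 lists without SMARTA cells and in none with them, and 160 of these were closed members. The reverse held for 41 members (1.18%, against 0.80%), of which 20 were opened. The peak lists and the count table come from the same libraries and are not independent of each other.

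The members fell into 547 spans, each the gene-free interval between 2 neighbouring protein-coding genes. A median of 2 members stood in a span, and 203 spans held 1. Of the 246 spans with a call, 144 held only closed members, 51 only opened ones and 51 both. The 57 spans with 5 or more calls held 485 of the 793 called members: 24 of them only closed, 4 only opened and 29 both. Each called member was also paired with the next called one of its span, across any uncalled members between. Of 547 such pairs, 456 (83.4%) had the same direction and 91 the opposite. Of called members 75.8% were closed, and the share of same-direction pairs that this mix alone would give was not worked out.

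**Figure D3:**
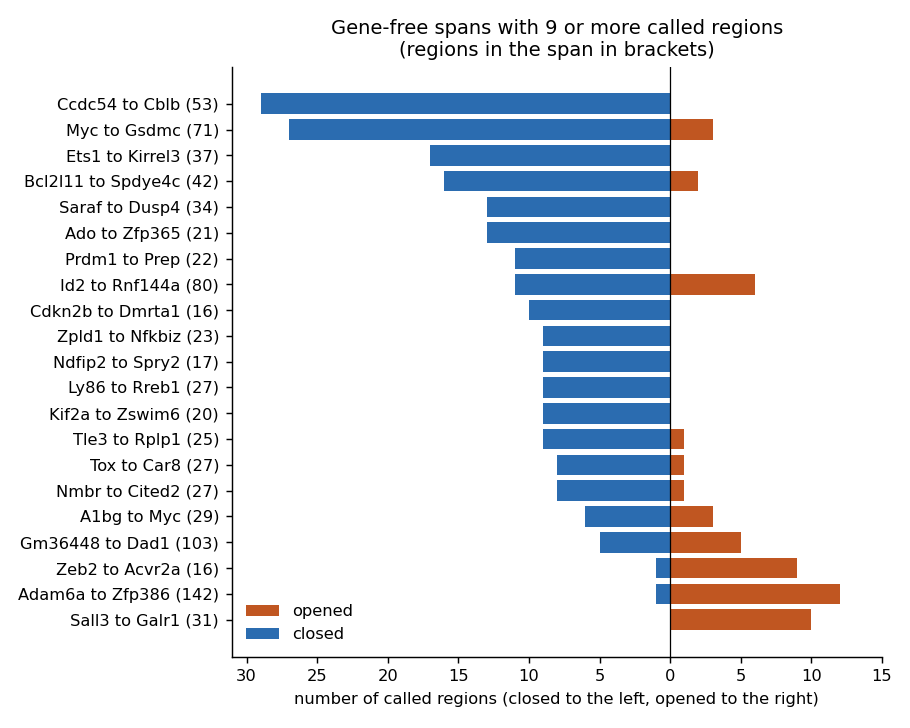
Bars count the closed (to the left) and opened (to the right) gene desert regions in each span with 9 or more calls, with the number of regions in the span in brackets. Ccdc54 to Cblb has 29 closed and 0 opened regions, and Adam6a to Zfp386 has 1 closed and 12 opened.

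Spans beside listed regulators of T cell signalling held more closed than opened members in sum, but not each of them: of 18 flanking genes, 8 had only closed calls, 3 both, 1 only opened and 6 none. The most calls beside one stood between Ccdc54 and Cblb, an E3 ubiquitin ligase that restrains T cell activation, where 29 of 53 members were closed and 0 opened, with a median log2 fold of -1.17. The strongest by p, chr16:51719581-51719981, 311 kb from Cblb, had log2 CPM of 1.28, 1.39 and 0.80 with SMARTA cells, against 3.12, 3.38 and 3.62 without. The 3 libraries with SMARTA cells were all below the 3 without, and the log2 fold was -2.27 ± 0.24 (edgeR adjusted p 0.000405). Inside Cblb itself 10 of 44 regions were closed and 0 opened.

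Between Saraf and Dusp4, a phosphatase that switches off MAP kinases, 13 of 34 members were closed and 0 opened. The strongest, chr8:34625691-34626091, 182 kb from Dusp4 and inside the non-coding B930018H19Rik, had log2 CPM of 0.82, 0.23 and -0.32 with SMARTA cells, against 3.27, 3.90 and 3.31 without, and it closed with a log2 fold of -3.32 ± 0.32 (edgeR adjusted p 0.000322). Between Ndfip2, an activator of NEDD4-family ubiquitin ligases, and Spry2, an inhibitor of receptor kinase signalling, 9 of 17 members were closed and 0 opened. Its strongest region, chr14:105615420-105616204, had log2 CPM of 0.50, 0.50 and 0.60 with SMARTA cells, against 2.52, 2.95 and 2.81 without. No library overlapped between the groups at either site, and the Spry2 site closed with a log2 fold of -2.30 ± 0.21 (edgeR adjusted p 0.000284).

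Between Dusp6, another MAP kinase phosphatase, and Csl, 3 of 25 were closed and 0 opened, with a median log2 fold of 0.08. That closed share was near the 10.4% of all regions and below the 17.3% of all gene desert regions. Closed members there numbered 1 with any one of no-SMARTA libraries 2 and 3 or with-SMARTA library 3 left out, and 5 by DESeq2. Of the 58 listed signalling regulators, 18 flanked a span with members, and those spans held 327 members with a median log2 fold of -0.29. Opened were 6 (1.83%, against 5.52% of all gene desert regions and 4.68% of all regions). Closed were 93 (28.4%, against 17.3% of all gene desert regions and 10.4% of all regions). The Cblb span alone gave 29 of these 93. Prkcq, a kinase of T cell receptor signalling, was the gene with only opened calls, 2 of 7 members, which numbered 0 without no-SMARTA library 2 or 3 or with-SMARTA library 3, and 1 without no-SMARTA library 1 or with-SMARTA library 2, under total-count scaling or under the replicate block. Without with-SMARTA library 3, 60 were closed. Opened members numbered 13 under loess scaling, 10 by DESeq2, 15 without with-SMARTA library 2, and 1, 2 and 3 without no-SMARTA library 2, no-SMARTA library 3 and with-SMARTA library 3.

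The Myc to Gsdmc span, which holds the non-coding gene Pvt1 beside the growth regulator Myc, had 27 closed and 3 opened of 71 members. Its strongest region, chr15:62271405-62271805, 281 kb from Myc, had log2 CPM of 1.16, 0.44 and 0.83 with SMARTA cells, against 3.41, 3.81 and 4.03 without. The groups did not overlap there, and the log2 fold was -2.99 ± 0.26 (edgeR adjusted p 0.000262). The closed members were spread over 720 kb, with log2 folds of -2.99 to -0.63. Without with-SMARTA library 3 the span had 15 closed members, and without no-SMARTA library 3 it had 16. The 3 opened members numbered 0 without no-SMARTA library 1, 2 or 3 and 1 without with-SMARTA library 1 or under the replicate block. On the other side, between A1bg and Myc, 6 of 29 were closed (2 without with-SMARTA library 3) and 3 opened (0 to 1 with any one library but with-SMARTA library 2 left out).

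**Figure D4:**
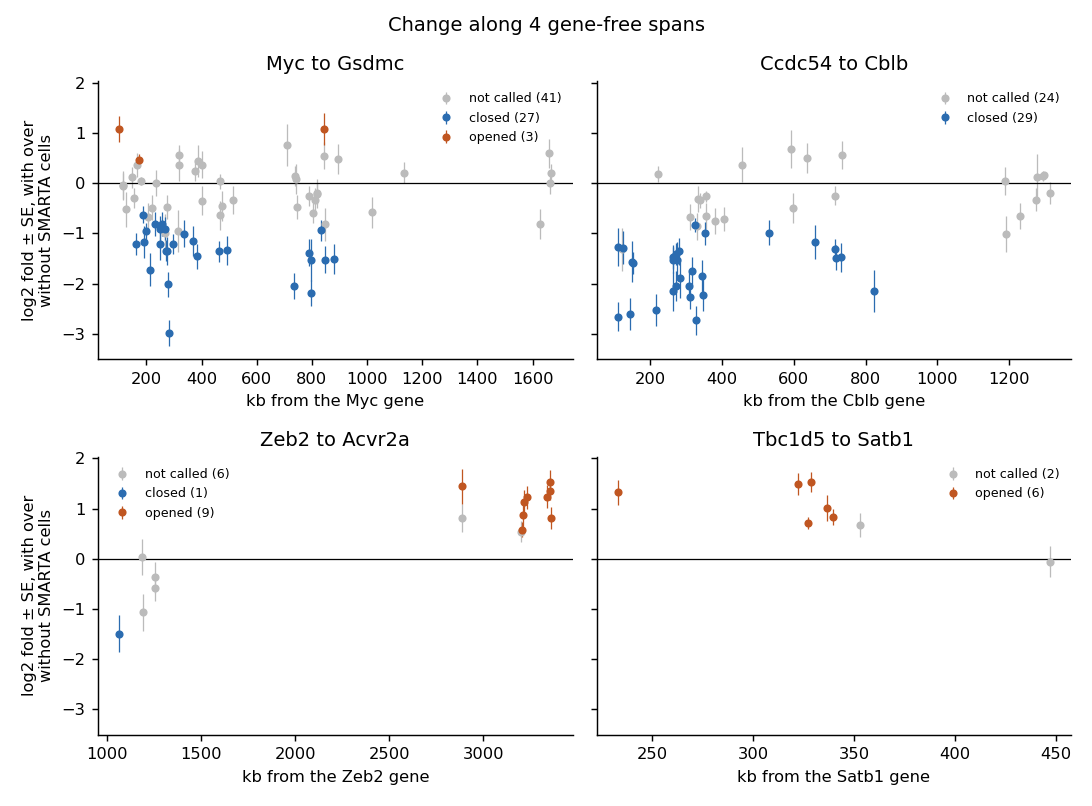
Each point is a gene desert region of 1 of 4 spans, with its distance from the named gene on the x axis (kb) and its log2 fold ± SE, with SMARTA cells over without, on the y axis. In the Myc to Gsdmc span 27 of 71 regions are closed and in the Ccdc54 to Cblb span 29 of 53, and opened ones stand together in the Zeb2 to Acvr2a and Tbc1d5 to Satb1 spans.

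Between Bcl2l11, which encodes the death protein BIM, and Spdye4c, 16 of 42 members were closed and 2 opened. Of these 42, 28 lay inside Morrbid, a long non-coding RNA known in mice to repress Bcl2l11, with 13 closed and 2 opened. The strongest closed one, chr2:128387854-128388254, had log2 CPM of 1.70, 0.78 and 0.94 with SMARTA cells, against 3.29, 3.36 and 3.43 without, with no overlap and a log2 fold of -2.21 ± 0.25 (edgeR adjusted p 0.000581). The opened site at the Gm14010 start had log2 CPM of 2.79, 3.18 and 3.25 with SMARTA cells, against 1.57, 1.89 and 1.69 without. Within the same non-coding gene the groups were thus apart in opposite directions at these sites. The span had 10 closed without with-SMARTA library 3 or no-SMARTA library 2, and Morrbid had 7 without either. The opened count was 1 without no-SMARTA library 1, no-SMARTA library 2 or with-SMARTA library 3, in the span and in Morrbid.

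Of the 38 listed transcription factor genes that flanked a span with members, 8 had only closed calls, 15 both, 4 only opened and 11 none. The 4 were Ets2, Bcl11b, Nr4a3 and Irf8, with 1 or 2 opened members each. Ets1 and Prdm1 were among the 8 with only closed calls. Between Ets1, a factor of T cell identity and survival, and Kirrel3, 17 of 37 members were closed and 0 opened (11 closed without with-SMARTA library 3 or no-SMARTA library 2), while inside Ets1 2 of 31 regions were closed and 1 opened. The strongest, chr9:32946418-32946818, had log2 CPM of -0.14, -0.81 and -0.39 with SMARTA cells, against 2.27, 1.96 and 2.01 without, for a log2 fold of -2.63 ± 0.25 (edgeR adjusted p 0.00031). Between Prdm1, which encodes the effector and exhaustion factor BLIMP1, and Prep, 11 of 22 were closed and 0 opened (7 without with-SMARTA library 3). There chr10:44723846-44724246, 195 kb from Prdm1, had log2 CPM of 0.90, 0.62 and 0.80 with SMARTA cells, against 2.44, 2.70 and 2.38 without, again with the groups apart.

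Tox, a factor that drives the exhausted state of CD8 T cells, had 8 closed and 1 opened of 27 members on its Car8 side, and inside the gene 23 of 33 regions were closed. The strongest member, chr4:7112168-7112568, 121 kb from Tox, had log2 CPM of 1.02, 0.50 and 0.19 with SMARTA cells, against 2.45, 3.22 and 3.20 without, and it closed with a log2 fold of -2.48 ± 0.30 (edgeR adjusted p 0.000676). Closed members there numbered 4 without with-SMARTA library 3, 4 without no-SMARTA library 3 and 5 without no-SMARTA library 1, and the opened one was not called with any one of no-SMARTA libraries 2 and 3 or with-SMARTA libraries 1 and 3 left out. The single member between Nsmaf and Tox was not called. Bcl6, a repressor tied to follicular helper and memory-like T cells, had 5 closed and 1 opened of 21 on its Lpp side. The strongest of these, chr16:24187151-24187551, had log2 CPM of 1.95, 0.92 and 1.22 with SMARTA cells, against 4.14, 4.13 and 4.36 without, for a log2 fold of -2.82 ± 0.27 (edgeR adjusted p 0.000303). Closed members of this span numbered 2 without with-SMARTA library 3 and 3 without no-SMARTA library 3, and the opened one was not called with any one of no-SMARTA libraries 1 and 2 or with-SMARTA libraries 1 and 3 left out.

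Some other spans beside transcription factor genes held more opened than closed members. Satb1, an organiser of chromatin in developing and activated T cells, had 6 opened and 0 closed of 8 members on its Tbc1d5 side, and 4 closed and 1 opened of 20 on its Kcnh8 side. On the Tbc1d5 side chr17:51407045-51407445, 329 kb from Satb1, had log2 CPM of 3.08, 2.92 and 2.95 with SMARTA cells, against 1.53, 1.19 and 1.71 without, for a log2 fold of 1.52 ± 0.20 (edgeR adjusted p 0.00116). On the Kcnh8 side chr17:52131384-52131784, 298 kb from Satb1, had log2 CPM of 0.86, 0.78 and 0.83 with SMARTA cells, against 2.54, 3.24 and 3.21 without, for a log2 fold of -2.26 ± 0.24 (edgeR adjusted p 0.00044). The groups were apart at both sites, in opposite directions. The opened member of the Kcnh8 side was not called without no-SMARTA library 2 or with-SMARTA library 3. Inside Satb1 0 of 20 regions were called.

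Between Zeb2, a transcription factor of terminal effector CD8 T cells, and Acvr2a, an activin receptor, 9 of 16 members were opened and 1 closed. These opened sites lay nearer to Acvr2a: the strongest, chr2:48472720-48473463, was 341 kb from Acvr2a and 3355 kb from Zeb2. It had log2 CPM of 4.42, 4.36 and 4.28 with SMARTA cells, against 2.74, 3.02 and 3.25 without, for a log2 fold of 1.34 ± 0.18 (edgeR adjusted p 0.00124). The groups did not overlap. Opened members numbered 4 without no-SMARTA library 2, and 5 without no-SMARTA library 3 or with-SMARTA library 3. The 1 closed member was not called without no-SMARTA library 1 or with-SMARTA library 3. Inside Zeb2 itself the calls went the other way, with 3 of 17 regions closed and 0 opened. Between Sall3, a developmental transcription factor gene of chromosome 18, and Galr1, 10 of 31 members were opened and 0 closed, but 3, 2 and 4 were opened without no-SMARTA library 1, 2 or 3, 6 without with-SMARTA library 1 and 4 without with-SMARTA library 3.

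Id2, an inhibitor of E proteins needed by effector CD8 T cells, stands beside the Id2 to Rnf144a span. There 11 of 80 members were closed, a share between the 10.4% of all regions and the 17.3% of all gene desert regions. Opened were 6, a share above the 4.68% and 5.52% of these sets. The 80 members had a median log2 fold of 0.03. The strongest, chr12:26057649-26058049, was 249 kb from Rnf144a and 962 kb from Id2, and had log2 CPM of 2.99, 2.90 and 2.69 with SMARTA cells, against 4.50, 4.10 and 4.16 without. Its groups were apart and its log2 fold was -1.41 ± 0.19 (edgeR adjusted p 0.00116). The span's counts rested on single libraries: 4 closed and 1 opened without no-SMARTA library 3, 5 and 2 without no-SMARTA library 2, and 7 and 2 without no-SMARTA library 1. They were 6 closed and 4 opened without with-SMARTA library 3, and 12 and 3 without with-SMARTA library 1, while the replicate block gave 7 and 6.

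Of the 79 listed T cell transcription factors, 38 flanked a span with members, and those spans held 674 members with a median log2 fold of -0.11. Closed were 122 (18.1%, near the 17.3% of all gene desert regions, against 10.4% of all regions). Opened were 51 (7.57%, against 5.52% of all gene desert regions and 4.68% of all regions). Without with-SMARTA library 3 the counts were 61 closed and 23 opened, and without no-SMARTA library 3 they were 73 and 23. Opened members numbered 29, 19 and 33 without no-SMARTA library 1, no-SMARTA library 2 and with-SMARTA library 1. The 11 receptor, cytokine and surface genes of 73 that flanked such spans had 130 members, with a median of -0.07. Closed were 23 (17.7%, near the 17.3% of all gene desert regions, against 10.4% of all regions). Opened were 5 (3.85%, against 5.52% of all gene desert regions and near the 4.68% of all regions). Among these genes Fasl, the death ligand, had 5 closed of 9 on its Tnfsf18 side (3 without with-SMARTA library 3 or no-SMARTA library 2). There chr1:161631949-161632349 had log2 CPM of 1.43, 0.62 and 1.10 with SMARTA cells, against 3.00, 2.96 and 2.86 without. Closed members of this list numbered 11, 12 and 14 without with-SMARTA library 3, no-SMARTA library 2 and no-SMARTA library 3, and opened ones 11 under loess scaling, 10 by DESeq2, 3 under total-count scaling, and 2, 2 and 3 without no-SMARTA library 2, no-SMARTA library 3 and with-SMARTA library 3. Adhesion and developmental genes, 22 of 70 flanking, had 92 members with a median of 0.03. Closed were 10 (10.9%, below the 17.3% of all gene desert regions and near the 10.4% of all regions). Opened were 11 (12.0%, against 5.52% of all gene desert regions and 4.68% of all regions), but 10 of these 11 stood in the Sall3 to Galr1 span. For this list loess scaling gave 9 closed and 14 opened. Its closed members numbered 5 without with-SMARTA library 3, and opened ones 2 to 7 with any one library but with-SMARTA library 2 left out.

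The members with the smallest p were not all beside listed genes. The deepest closing stood at chr9:61779241-61779641, between Tle3, a Groucho-family corepressor, and the ribosomal protein gene Rplp1, inside the non-coding Gm34828. It had log2 CPM of 0.86, 0.50 and -0.19 with SMARTA cells, against 4.92, 4.73 and 4.89 without, with the groups far apart and a log2 fold of -4.51 ± 0.26 (edgeR adjusted p 0.000207). That span had 9 closed and 1 opened of 25 members, and the opened one was not called with any one library left out. On the other side of Tle3, towards Uaca, 0 of 16 were closed and 5 opened (3 without no-SMARTA library 2), with log2 CPM of 3.52, 3.26 and 3.12 with SMARTA cells, against 2.04, 1.84 and 1.65 without at chr9:61054383-61054783.

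Between Ado and Zfp365 13 of 21 members were closed and 0 opened, and chr10:67680266-67680666 had log2 CPM of -0.07, -0.01 and -0.70 with SMARTA cells, against 3.08, 3.28 and 2.88 without. That site closed with a log2 fold of -3.49 ± 0.26, and no peak was listed there with SMARTA cells while all 3 lists without them held one. The lone member between Man1a and Tbc1d32, chr10:54254983-54255383, showed the same pattern, with log2 CPM of -0.62, -0.53 and -0.19 with SMARTA cells, against 2.38, 2.21 and 2.31 without. Between Cdkn2b, a cell cycle inhibitor, and Dmrta1, 10 of 16 members were closed and 0 opened, though loess scaling gave 8 closed and 2 opened.

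The opened member with the smallest p was chr1:143319595-143319995, 283 kb from Cdc73, a part of the PAF transcription elongation complex. It had log2 CPM of 4.38, 5.12 and 4.47 with SMARTA cells, against 2.96, 3.08 and 3.17 without, with no overlap and a log2 fold of 1.63 ± 0.22 (edgeR adjusted p 0.00111). Beside Tgfbr2, a receptor of TGF-beta, chr9:116369015-116369415 was open in both groups, with log2 CPM of 6.07, 5.70 and 5.70 with SMARTA cells, against 5.10, 4.93 and 5.18 without, and opened with a log2 fold of 0.76 ± 0.12 (edgeR adjusted p 0.00261). Closer to Tgfbr2, chr9:116324615-116325015 had log2 CPM of 0.21, -0.41 and -0.46 with SMARTA cells, against 1.55, 2.41 and 1.65 without, and closed with a log2 fold of -2.24 ± 0.33 (edgeR adjusted p 0.0018). The groups were apart at both. Beside Zfp36l2, an RNA-binding protein that speeds decay of messenger RNA, chr17:84061596-84061996 had log2 CPM of 3.86, 3.90 and 3.44 with SMARTA cells, against 2.54, 2.47 and 2.19 without.

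**Figure D5:**
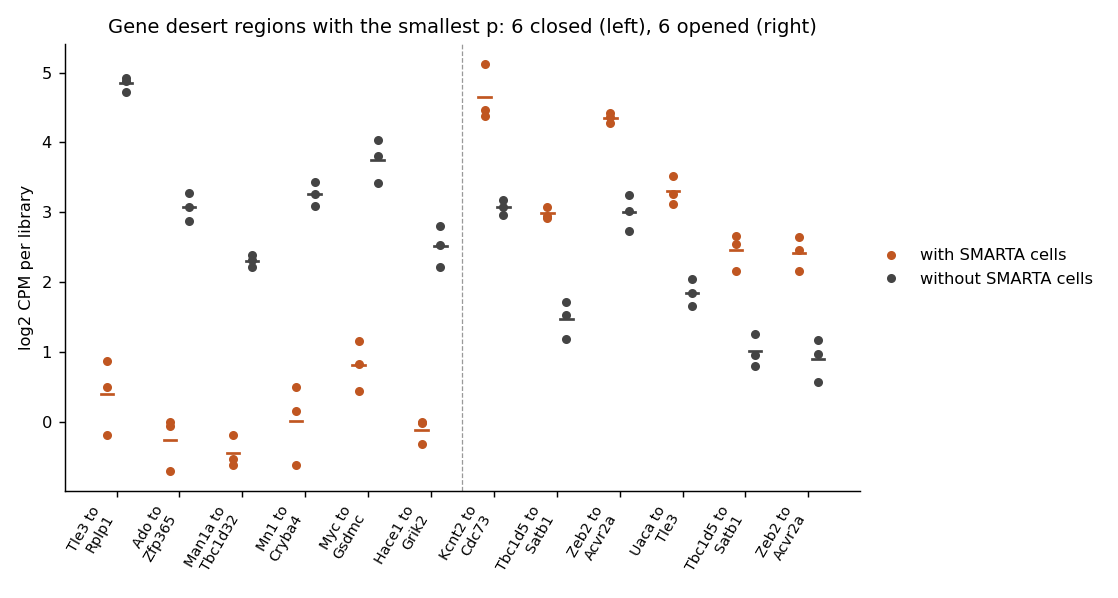
Points give the log2 CPM of each library, with SMARTA cells to the left and without to the right, for the 6 closed and the 6 opened members with the smallest p, named by the genes on each side, and short lines give the group means. The Tle3 to Rplp1 region has 0.86, 0.50 and -0.19 with SMARTA cells, against 4.92, 4.73 and 4.89 without, and no region shows overlap.

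The 5 most accessible members were not called. The highest, chr1:7397818-7398218, 224 kb from Pcmtd1, had log2 CPM of 7.24, 7.44 and 7.12 with SMARTA cells, against 6.92, 7.07 and 7.02 without, all 3 above the 3 without, and an edgeR adjusted p of 0.0505. It passed at 0.0489 with DESeq2 size factors, 0.0242 under the replicate block and 0.0232 without with-SMARTA library 3. Between Eea1 and Btg1, an antiproliferative gene, chr10:96370922-96371322 had log2 CPM of 6.98, 7.02 and 7.01 with SMARTA cells, against 6.87, 7.05 and 6.92 without, with overlapping groups. The 3 members farthest from any protein-coding gene were not called either, and the farthest, chr1:101902232-101902632, 1412 kb from Cntnap5b, had log2 CPM of 4.40, 4.50 and 4.41 with SMARTA cells, against 3.95, 4.32 and 4.26 without.

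Members in the antigen receptor loci had more opened than closed calls, and the others had the reverse, a difference that was not tested. Of the 269, 7 were closed (2.60%, against 10.4% of all regions) and 18 opened (6.69%, against 4.68%), with a median log2 fold of 0.22. Of the other 3212, 594 were closed (18.5%) and 174 opened (5.42%), with a median of -0.13. In the immunoglobulin heavy chain span, Adam6a to Zfp386, 1 of 142 was closed (0.70%) and 12 opened (8.45%). The strongest there, chr12:114176225-114176625, had log2 CPM of 3.55, 3.23 and 3.23 with SMARTA cells, against 2.62, 2.08 and 2.17 without, with the groups apart, a log2 fold of 1.05 ± 0.22 and an edgeR adjusted p of 0.00957, which became 0.0534 and 0.0545 without no-SMARTA library 2 or 3. Opened members of that span numbered 1 without no-SMARTA library 2 or 3 and 5 without with-SMARTA library 1, and the closed one was not called without no-SMARTA library 2 or 3, without with-SMARTA library 3 or under loess scaling. Summed values at B cell markers were 65.6 to 70.1 CPM with SMARTA cells and 70.3 to 86.1 without, and the part of B cells in this result was not tested.

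The T cell receptor alpha span, Gm36448 to Dad1, had 5 closed (4.85%, against 10.4% of all regions) and 5 opened of 103 members. Its opened share, also 4.85%, was near the 4.68% of all regions. Under loess scaling the span had 3 closed and 11 opened. Opened members there numbered 10 by DESeq2 and 3 under total-count scaling, the replicate block or without no-SMARTA library 1. Without no-SMARTA library 2 the span had 2 closed and 0 opened, without no-SMARTA library 3 it had 1 and 0, and without with-SMARTA library 3 it had 2 and 2. The strongest, chr14:53039442-53039842 at the Gm30214 start, had log2 CPM of 1.12, 0.88 and 1.33 with SMARTA cells, against 3.10, 3.68 and 3.58 without, with the groups apart. Over all antigen receptor members, closed ones numbered 4 under loess scaling or without with-SMARTA library 3, 3 without no-SMARTA library 2 and 1 without no-SMARTA library 3, and opened ones 1 without either of no-SMARTA libraries 2 and 3 and 10 without with-SMARTA library 1. Over the other members 344 were closed without with-SMARTA library 3, and opened ones numbered 90 without it and 110, 65 and 73 without no-SMARTA library 1, 2 or 3.

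Members inside non-coding genes and members away from them both held more closed than opened calls, and the difference between them was not tested. Of the 943 members inside one, 181 were closed (19.2%) and 53 opened (5.62%), and of the 2414 more than 2 kb from any, 395 were closed (16.4%) and 134 opened (5.55%), where 10.4% of all regions were closed and 4.68% opened. Without with-SMARTA library 3 these were 112 and 27 inside, and 221 and 73 beyond 2 kb, where 262 were closed without no-SMARTA library 3. Opened members inside numbered 34, 21 and 21 without no-SMARTA library 1, 2 or 3, and beyond 2 kb 86, 42 and 51, with 87 without with-SMARTA library 1. The 943 lay in 387 non-coding genes, 383 of them long non-coding RNAs, of which 134 had a call, and 3 members lay within 2 kb of a microRNA.

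The following non-coding genes were picked after their values were seen. Pvt1 had 10 closed and 2 opened of 23 members, with 5, 4, 3 and 4 closed without no-SMARTA library 1, 2 or 3 or with-SMARTA library 3. Its opened members numbered 0 without no-SMARTA library 1, 2 or 3 and 1 without with-SMARTA library 1 or 2 or under the replicate block. Gm12610, beside Cdkn2b, had 9 closed of 10, and Gm45968, beside Nfkbiz, a regulator of NF-kappaB target genes, had 7 closed of 14. Gm41414, between Eef2kmt and Rbfox1, had 6 opened and 0 closed of 11. Among the opened ones was chr16:5371200-5371600, 115 kb from Eef2kmt and 513 kb from Rbfox1. This region had log2 CPM of 2.58, 1.98 and 2.69 with SMARTA cells, against 0.83, -0.04 and 0.87 without. Its log2 fold of 1.92 ± 0.29 was the highest among the opened members, with an edgeR adjusted p of 0.00227. Lncpint had 3 opened and 0 closed of 25, but 0 opened without no-SMARTA library 1 or 3 or with-SMARTA library 3, and 7 without with-SMARTA library 2. In Firre, a nuclear RNA of the X chromosome, 1 of 10 was closed, near the 10.4% of all regions.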

How the data were processed

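ATAC-seq was measured in 6 libraries, 3 with SMARTA cells and 3 without, grouped and numbered by their titles. The authors deposited whole-number read counts per region, not normalized. Each library also has a peak list with the authors' score, fold enrichment ratio, −log10 p-value and −log10 q-value per peak and the summit's offset, per the file headers and values. The submitters' processing notes list GRCm38 as the build, with DiffBind 3.4.11, MACS2 2.1.1, Picard 2.18.9, SAMtools 1.8 and BWA 0.7.17. How duplicates were treated, how reads were shifted for the transposase and how the region table was drawn up is not given in these sources. Duplicates that remained would raise counts, and sites missing from the region table were not tested.

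Members were found with RefSeq's GRCm38.p6 gene positions, without strand. Counts of all regions were fitted with edgeR 4.0.16 under R 4.3.3 (TMM, filterByExpr, which removed 0 regions, glmQLFit and glmQLFTest, Benjamini-Hochberg adjustment). The biological coefficient of variation was 18.0%, and the SE was taken as the absolute log2 fold over the square root of F. Log2 CPM used a prior count of 2. The code was tested on data simulated for 74686 regions, with 50 regions changed at each fold. It recovered 3 of 50 at 1.5-fold, 19 at 2-fold, 46 at 4-fold and 50 at 8-fold, with 9 false calls. Far fewer regions changed there than were called in the data, so these rates need not hold for the data. An uncalled region may thus have changed by a small fold. Alternatives were DESeq2 1.42.0, its size factors, total-count and loess scaling (limma 3.58.1), no filter, a mean of 50 counts or more, each library left out, a replicate block, other distance limits, all RefSeq genes as boundaries and autosomes only.

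Named regions are the 10 closed and 10 opened members with the smallest p, the 5 most accessible, the 3 farthest from a gene and the strongest of each span with most members, most calls or a listed gene beside it; the text gives a selection of them, chosen with their values in view, and other spans and genes are marked or were likewise chosen. The members and lists were chosen with earlier results of these data known. Peaks overlapping a region by 1 base or more were counted. Genome sequence was not used here; the planned motif search therefore ran on RefSeq promoter windows only and no GC correction was made.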

Additional observations from a re-analysis of the deposited data

How the results depend on the processing

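The same 3481 members had 601 closed and 192 opened calls and a median log2 fold of -0.09. Leaving out 1 library at a time gave 348 to 656 closed, 66 to 233 opened and medians of -0.14 to -0.04. In these fits 5.90% to 11.3% of all regions were closed and 1.64% to 5.70% opened. Loess scaling moved the median to 0.0012 (0.02 over all regions), with 551 closed and 265 opened. Limits of 50 kb and 200 kb gave 1060 and 246 closed and 319 and 87 opened, as more or fewer regions qualify, and all RefSeq genes as boundaries gave 43 closed, 11 opened and a median of -0.18. DESeq2 gave 636 and 230, total-count scaling 622 and 161, DESeq2 size factors 601 and 195, and autosomes 593 and 189. Regions with a mean of 50 counts or more, 2164 of the members, held 411 and 147. Leaving out the antigen receptor loci, a setting chosen after seeing the data, gave 594 and 174. Of 75 named regions 11 lost their call without with-SMARTA library 3, 7 each without no-SMARTA libraries 2 and 3, 2 without no-SMARTA library 1, 1 without with-SMARTA library 1 and 1 under loess scaling, and none changed sign.

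With the replicate number as a block, 575 members were closed, 172 opened and the median was -0.10. Same-numbered libraries deviated from their group means with correlations of -0.02, -0.08 and 0.08, so the numbers were not taken to pair the libraries, and not every library correlated best with its own number.

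Groups of 3 libraries were not tested for outlying samples. GC content of the regions was not examined, and sites outside the count table were not tested for change.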

Other observations

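The deposited peak lists hold gene desert peaks that the count table leaves out. Peaks more than 100 kb from a protein-coding gene numbered 3542, 2631 and 3303 in the lists with SMARTA cells, against 3309, 3816 and 3816 without, and between 16.4% and 20.6% of them in a list overlapped no region of the count table. The highest-scoring such peak of every list was absent from the count table and stood at one place on chromosome 2, from 98666184 to 98667389 in with-SMARTA library 1. Its authors' score was 72225, 69570 and 85926 with SMARTA cells, against 114917, 87035 and 87414 without, and scores of separate lists show no change. Whether this peak, or others absent from the count table, mark true open chromatin was not tested.

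Members were unevenly spread over chromosomes, and 10.4% of all regions were closed and 4.68% opened. On chromosome 16, 187 regions were members (7.12% of the regions of that chromosome), with 64 closed (34.2%) and 11 opened (5.88%). Of these 64, 29 stood in the Ccdc54 to Cblb span. On chromosome 17, 78 were members (2.36%), with 10 opened (12.8%), 6 of these between Tbc1d5 and Satb1. Closed members there numbered 7 (8.97%, below the share of all regions). On chromosome 12, which holds the immunoglobulin heavy chain locus, 408 were members (12.7%), with 30 closed (7.35%, also below it) and 27 opened (6.62%).

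Between Tnfaip3, the NF-kappaB inhibitor A20, and Olig3, 18 members had 0 calls by edgeR.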
